A study of Rattus norvegicus with 9 samples.

Results

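The elastic fibre genes described here code for the elastin core, the fibrillin microfibrils that carry it, and the small glycoproteins that join and assemble both. They are Eln, Fbn1, Fbn2, Fbln1, Fbln5, Efemp1, Efemp2, Mfap2, Mfap5 and Emilin1, chosen by gene name as proteins of the elastic fibre. The choice applied no limit on a measured value, but earlier results of these data were known when it was made. All 10 are among the 17337 genes of the count table, and all 10 passed the filter on low counts that left 11337 genes to test. Elastic fibres form when tropoelastin, the secreted monomer, is laid down on bundles of fibrillin microfibrils and cross-linked by lysyl oxidases. Fibulins and the EMILIN and MAGP glycoproteins bind tropoelastin or fibrillin and help place one on the other, and microfibrils also hold latent TGF-beta in the matrix. In the heart the fibres give recoil to the valves, the great vessels and the walls, and in elastic tissues most tropoelastin is made around birth.

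RNA was sequenced from cultured cardiac fibroblasts of Sprague Dawley rats at 3 ages, with 3 libraries each. The fetal cells came from E18 hearts, the neonatal cells from P1 hearts and the adult cells from hearts of rats 7 weeks old. The labels name no genetic change or treatment. All cells were unpassaged isolates (P0) grown to confluency in T75 flasks, in DMEM with fetal bovine serum and ascorbic acid, and no sorting step is described. The labels do not say whether the 3 libraries of an age came from separate animals or cultures, so p-values measure only the spread between these libraries, which may be technical. Library totals ran from 13392825 to 22850491 assigned reads. Levels below are CPM, read counts set to a common library size with TMM scaling, fold changes and p-values come from edgeR's quasi-likelihood test on the counts, and p-values are Benjamini-Hochberg adjusted over all genes tested. A gene is said to rise or fall where the adjusted p is under 0.05.

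Fetal replicate 3 stood apart from the other fetal libraries: 10.2% of genes differed at least 2-fold from the mean of fetal replicates 1 and 2, against 0.750% between those replicates. Its summed level of 6 epithelial markers was 395 CPM against 23.6 and 26.5 CPM, and its summed level of 10 fibroblast markers was 26484 CPM against 53231 and 50075 CPM. Of these fibroblast markers, Pdgfra and Vim were 1.41-fold and 1.12-fold higher there and the others lower, Col1a1 and Col3a1 by 2.14-fold and 2.17-fold. Fold changes against fetal libraries are also given without fetal replicate 3, while the likeness of profiles was not recomputed without it. The spread of each gene was estimated over all 9 libraries. Fetal replicate 3 therefore also enters the SE and p-values of adult against neonatal libraries. Fibroblast markers were abundant at every age, with summed levels of 70646 to 76889 CPM in neonatal and 26657 to 34594 CPM in adult libraries, although Col1a2 was close to 0 in every library. Most of each sum was Col1a1 and Col3a1, at means of 37781 and 30793 CPM in neonatal and 14959 and 9464 CPM in adult libraries. Of the 10 markers, 3 were higher and 4 lower in adult than in neonatal libraries, where 31.6% and 31.8% of all genes were. The 12 macrophage markers were all higher in every adult library than in any other, with summed levels of 14.3 to 64.1 CPM in fetal, 106 to 119 CPM in neonatal and 2905 to 3883 CPM in adult libraries, and Cd163 was at 0 in all fetal and neonatal libraries. Smooth muscle and mural markers summed to 2718 to 4020, 3593 to 3687 and 469 to 909 CPM at the same ages. Cardiomyocyte markers summed to 7435 to 11229, 5286 to 5843 and 304 to 319 CPM. The adult sum was almost all Tnnt2, at a mean of 309 CPM, and the next highest marker, Actn2, had an adult mean of 0.565 CPM. The part of these other cells in the results below was not tested, and in RNA from a whole culture fewer cells of a type and less RNA per cell cannot be told apart.

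Promoter sequence is shown for the fibrillin pair and the MAGP pair, because in each pair the related genes took different courses over the ages. Each run is the 250 bases just before the RefSeq gene start in build GRCr8, 5′ to 3′ on the gene's strand, and capitals mark a motif match.
Fbn1 (chr3:133203391-133203640, minus strand): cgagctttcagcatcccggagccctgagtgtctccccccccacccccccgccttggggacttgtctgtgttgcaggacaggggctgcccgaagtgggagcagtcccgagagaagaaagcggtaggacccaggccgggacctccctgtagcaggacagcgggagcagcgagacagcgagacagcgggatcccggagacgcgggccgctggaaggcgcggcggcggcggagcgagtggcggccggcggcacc
Fbn2 (chr18:53901993-53902242, minus strand): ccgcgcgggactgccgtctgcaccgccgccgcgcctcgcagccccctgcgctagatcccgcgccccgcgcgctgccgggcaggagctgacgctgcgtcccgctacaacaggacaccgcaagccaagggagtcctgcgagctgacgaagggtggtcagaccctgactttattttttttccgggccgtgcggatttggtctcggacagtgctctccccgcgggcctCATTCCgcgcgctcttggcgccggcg
Mfap2 (chr5:158597478-158597727, plus strand): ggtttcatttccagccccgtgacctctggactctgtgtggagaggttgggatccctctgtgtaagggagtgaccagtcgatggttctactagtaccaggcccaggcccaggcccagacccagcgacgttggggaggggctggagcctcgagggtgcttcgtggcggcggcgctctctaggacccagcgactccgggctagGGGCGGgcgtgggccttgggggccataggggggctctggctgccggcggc
Mfap5 (chr4:157399669-157399918, plus strand): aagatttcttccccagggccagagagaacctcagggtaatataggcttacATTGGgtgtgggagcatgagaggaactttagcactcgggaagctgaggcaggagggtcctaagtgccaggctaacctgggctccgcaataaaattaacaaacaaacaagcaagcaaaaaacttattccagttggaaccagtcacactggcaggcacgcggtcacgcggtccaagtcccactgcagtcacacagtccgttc
Each window was searched on both strands for the core promoter motifs TATA box, CCAAT box and GC box and for the motifs of the AP-1 and TEAD transcription factors. The TEAD motif (letters CATTCC) lies 26 to 21 bases before the Fbn2 start and is in 12.1% of all 33360 promoter windows. The GC box of Mfap2, spelled GGGCGG, lies 50 to 45 bases before its start and is in 30.5% of windows. The CCAAT box of Mfap5 is read on the other strand, as ATTGG, lies 200 to 196 bases before its start and is in 34% of windows. The TATA box was searched as TATAAA and is in 12.9% of windows, and the AP-1 motif was searched as TGANTCA and is in 6.35%. No window shown holds more than 1 match, so no matches overlap. No searched motif is in the Fbn1 window. Fbn1 and Fbn2 windows hold 24 and 34 CpG dinucleotides, the Mfap2 window 15 and the Mfap5 window 7, against a median of 5 over all windows. Matches are letters in a window and were not tested for binding. RefSeq promoter entries matched 7 of the 10 genes, and Eln, Fbln1 and Emilin1 were not matched.

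All 10 elastic fibre genes differed among the 3 ages in a test for any difference, where 77.6% of all genes tested did. From birth to adulthood they divided: Eln, Fbn1, Fbn2, Fbln5 and Mfap2 fell, and Fbln1, Emilin1, Mfap5 and Efemp1 rose, while Efemp2 did not pass. These 9 of 10 compare with 63.5% of all genes called between adult and neonatal libraries, 31.6% higher and 31.8% lower. Between adult and fetal libraries all 10 passed, 5 higher and 5 lower, against 70.5% of all genes, 34.9% higher and 35.5% lower. Between neonatal and fetal libraries 4 passed, with Efemp2 higher and Fbn2, Mfap2 and Mfap5 lower, against 36.3% of all genes, 18.3% higher and 18.0% lower. The median size of the log2 fold change over the 10 genes was 0.62 for neonatal against fetal, 2.46 for adult against neonatal and 3.58 for adult against fetal, beside 0.29, 0.52 and 0.63 over all genes tested. The libraries of the ages compared did not overlap for 6 of the 10 genes in neonatal against fetal libraries (57.4% of all genes), for all 10 in adult against neonatal (76.1%) and for 9 in adult against fetal libraries (71.8%). The 3 comparisons share libraries, so they are not independent of each other.

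Without fetal replicate 3, 11519 genes were tested. Neonatal against fetal libraries then gave 6 calls among the 10 genes, Fbn1 and Efemp2 higher and Fbn2, Fbln5, Mfap2 and Mfap5 lower, against 40.6% of all genes, 21.0% higher and 19.6% lower. Adult against neonatal libraries gave all 10, 5 in each direction, against 72.2% of all genes (36.1% higher, 36.2% lower). Adult against fetal libraries gave the same division of 5 higher and 5 lower, against 74.8% (37.3% and 37.5%). The median sizes of the log2 fold change over the 10 genes were then 0.73, 2.46 and 3.83, beside 0.25, 0.53 and 0.62 over all genes. Libraries did not overlap for 8, 10 and 10 genes, where 70.6%, 75.8% and 81.3% of all genes did not.

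**Figure D1:**
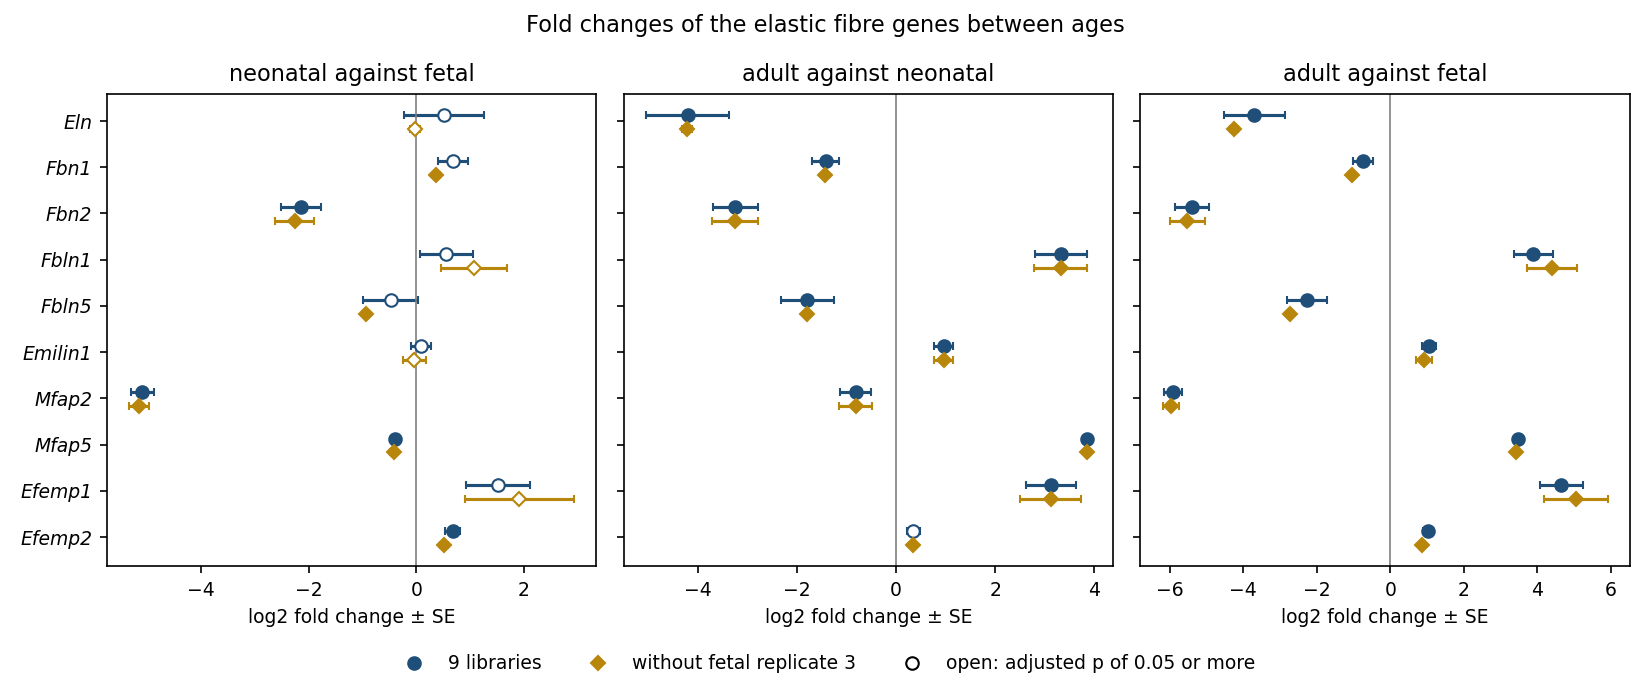
Log2 fold change (horizontal axis) of each elastic fibre gene in the 3 comparisons of ages, with bars of 1 SE derived from the edgeR test, filled points for an adjusted p under 0.05 and the same fits without fetal replicate 3. Eln, Fbn1, Fbn2, Fbln5 and Mfap2 lie below 0 in adult against neonatal libraries, and the other genes lie above 0.

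Eln codes for tropoelastin, the precursor of the elastic core (rn6 chr12:24978478-25021864, plus strand, counted over 37 exon blocks). Its level was 3831, 3529 and 226 CPM in the fetal libraries, 3428, 3679 and 3732 CPM in the neonatal libraries, and 165, 214 and 208 CPM in the adult libraries. Fetal replicates 1 and 2 sat at the neonatal level, fetal replicate 3 sat near the adult level, and neonatal and adult libraries did not overlap. Eln fell 18.5-fold from neonatal to adult libraries (log2 fold change -4.21 ± 0.84 SE, adjusted p = 0.00214) and was 12.9-fold lower in adult than in fetal libraries (-3.69 ± 0.82 SE, adjusted p = 0.00324). Neonatal and fetal libraries did not differ detectably (0.51 ± 0.74 SE, adjusted p = 0.611). Without fetal replicate 3 this last value was -0.025 (adjusted p = 0.865), and the adult falls were -4.21 against neonatal and -4.24 against fetal libraries. The adult fall from neonatal libraries then had an SE of 0.10 (adjusted p = 2.18e-10), so its wider SE above came with fetal replicate 3.

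The gap between fetal replicate 3 and its group was widest at Eln among these genes. Its Eln level was 16.2-fold below the mean of the other fetal libraries, and 6 of 11337 genes, Eln included, were at least as low there, where 4.93% of genes were at least 2-fold lower. Fbln5 was 5.89-fold lower and Fbn1 2.35-fold lower in that library, while Fbln1 was 2.28-fold and Efemp1 1.86-fold higher. The other 5 genes differed by less than 1.5-fold. In the same library the mural markers Rgs5 and Notch3 were 7.70-fold and 6.79-fold lower, the widest falls of the smooth muscle and mural list. Abcc9 of that list was 1.41-fold higher, and Cnn1 and Des were only 1.06-fold and 1.17-fold lower. The epithelial marker Cdh1 was 60.8-fold higher. The macrophage marker Ptprc was 18.7-fold higher, from close to 0 in fetal replicates 1 and 2. The summed macrophage markers were at 64.1 CPM there against 14.7 and 14.3 CPM, and Cd163 was at 0 in every fetal library. The part of these cells in the Eln value was not tested.

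**Figure D2:**
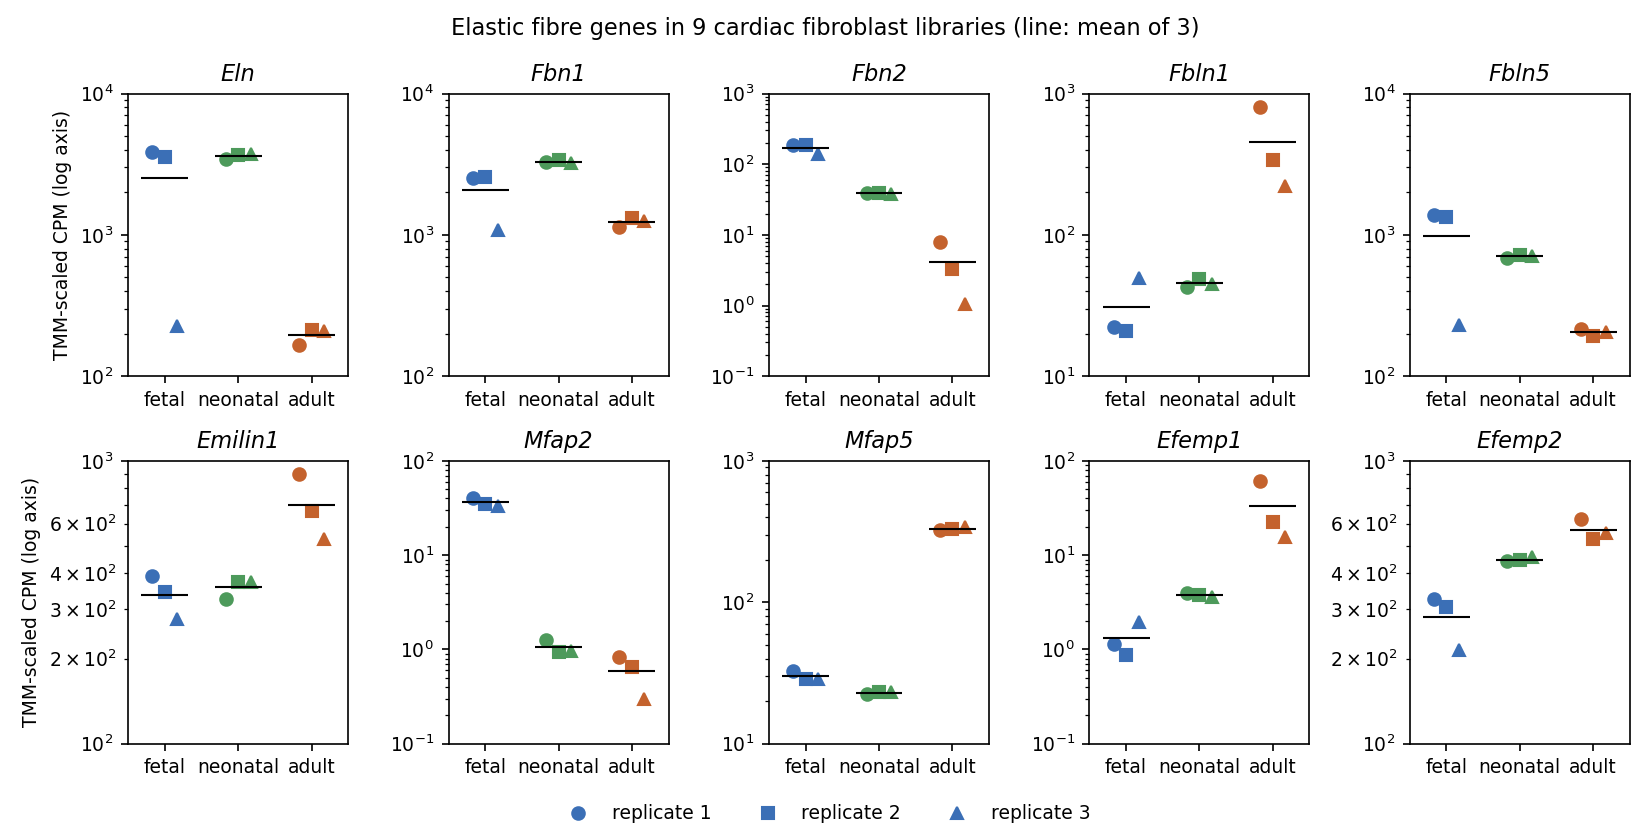
Level of each elastic fibre gene in the 9 libraries (TMM-scaled CPM, log axis; marker shape gives the replicate, the line the mean of 3). Fetal replicate 3 lies at 226 CPM for Eln, beside adult libraries at 165 to 214 CPM, whereas its Mfap2 and Mfap5 values lie with the other fetal libraries.

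The fibrillins build the microfibril scaffold. Fbn1, the main fibrillin of mature tissue (rn6 chr3:117570376-117765286, minus strand, 65 exon blocks), stood at 2542, 2555 and 1085 CPM in fetal libraries, 3302, 3400 and 3205 CPM in neonatal libraries and 1131, 1311 and 1259 CPM in adult libraries. Neonatal libraries were highest and overlapped neither other age, and fetal replicate 3 lay just under the adult range. Fbn1 fell 2.68-fold from neonatal to adult libraries (log2 fold change -1.42 ± 0.28 SE, adjusted p = 0.00172). It was 1.67-fold lower in adult than in fetal libraries (-0.74 ± 0.27 SE, adjusted p = 0.0355) and stood higher in neonatal than in fetal libraries by a margin that did not pass (0.68 ± 0.27 SE, adjusted p = 0.0799). Without fetal replicate 3 the neonatal libraries were higher (0.37, adjusted p = 0.00127) and the adult difference from fetal libraries was -1.05 (adjusted p = 8.45e-08).

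Fbn1 and Fbn2 are among the longest transcripts in the table, with 8942 and 8635 exon bases. The 186 tested genes of at least 8000 exon bases, a limit chosen after the data were seen, had a median log2 fold change of -0.81 in adult against neonatal and -0.82 in adult against fetal libraries, where all genes lay near 0. With the trend over exon length removed, the adult fall of Fbn1 from neonatal libraries was -0.55 and no longer passed (adjusted p = 0.0981), and its difference from fetal libraries turned to 0.22 (adjusted p = 0.467). Leaving out fetal replicate 1 or 2 (adjusted p = 0.115 and 0.122), any 1 neonatal library (0.0522 to 0.0524) or adult replicate 1, 2 or 3 (0.0984, 0.0678 and 0.0759) also ended the call of Fbn1 between adult and fetal libraries.

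Fbn2, the fibrillin best known from developing tissue (rn6 chr18:53068495-53272254, minus strand, 64 exon blocks), fell at both steps. It stood at 187, 186 and 139 CPM in fetal libraries, 39.2, 39.3 and 37.8 CPM in neonatal libraries and 8.03, 3.25 and 1.05 CPM in adult libraries. The adult values rest on 105, 45 and 14 reads. No library of one age overlapped those of another, and the adult libraries were spread most as a ratio of highest to lowest, though fetal libraries were spread most in CPM. Fbn2 was 4.40-fold lower in neonatal than in fetal libraries (log2 fold change -2.14 ± 0.37 SE, adjusted p = 0.00303) and a further 9.47-fold lower in adult libraries (-3.24 ± 0.45 SE, adjusted p = 0.000258). From fetal to adult libraries it fell 41.7-fold (-5.38 ± 0.46 SE, adjusted p = 9.66e-06). The fetal comparisons gave -2.26 for neonatal (adjusted p = 0.00465) and -5.52 for adult libraries (adjusted p = 9.00e-05) without fetal replicate 3. Without adult replicate 1 the adult values were -4.16 against neonatal and -6.29 against fetal libraries, and with the length trend removed they were -2.41 and -4.47, all past the threshold. Counted per kilobase of exon, Fbn2 made up 8.59% ± 2.68 (SD, n = 3) of the 2 fibrillin transcripts in fetal libraries, with 7.07%, 7.02% and 11.7% in replicates 1 to 3. It made up 1.20% ± 0.0168 in neonatal libraries and 0.357% ± 0.334 in adult libraries.

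The short fibulins bind tropoelastin and bring it to the microfibril and to its cross-linking enzymes. Fbln5 links elastin to cell-surface integrins (rn6 chr6:125644799-125723957, minus strand, 11 exon blocks). Its level was 1380, 1329 and 230 CPM in fetal libraries, 688, 715 and 711 CPM in neonatal libraries and 216, 191 and 204 CPM in adult libraries. Fetal replicates 1 and 2 were highest, and fetal replicate 3 lay just above the adult libraries, below every neonatal one. Fbln5 fell 3.46-fold from neonatal to adult libraries (log2 fold change -1.79 ± 0.53 SE, adjusted p = 0.0157) and 4.81-fold from fetal to adult libraries (-2.27 ± 0.54 SE, adjusted p = 0.00452). Between neonatal and fetal libraries it did not pass (-0.48 ± 0.51 SE, adjusted p = 0.493), but without fetal replicate 3 it was lower in neonatal libraries by 1.92-fold (-0.94 ± 0.057 SE, adjusted p = 4.71e-07) and in adult libraries by 6.66-fold (-2.74, adjusted p = 1.54e-11). The adult fall of Fbln5 from neonatal libraries was then -1.79 ± 0.054 SE (adjusted p = 2.51e-10).

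Efemp2, or fibulin-4, is needed for elastic fibre assembly and binds lysyl oxidase (rn6 chr1:220854403-220861420, plus strand, 11 exon blocks). It stood at 325, 303 and 214 CPM in fetal, 444, 445 and 456 CPM in neonatal and 626, 531 and 558 CPM in adult libraries. The 3 ages did not overlap, with fetal libraries lowest and adult libraries highest. Efemp2 rose 1.59-fold from fetal to neonatal libraries (log2 fold change 0.67 ± 0.14 SE, adjusted p = 0.00618) and 2.03-fold from fetal to adult libraries (1.02 ± 0.14 SE, adjusted p = 0.000139). From neonatal to adult libraries the difference was 0.35 ± 0.14 SE and just missed the threshold (adjusted p = 0.0511). It passed without fetal replicate 3 (0.35, adjusted p = 0.000398) or 1 (0.0426), with RLE scaling (0.0435) or library size alone (0.00821), with only the 2 ages compared (0.000921) and with DESeq2 (0.0282). In the other 10 of 16 alternatives it did not pass, and the value fell as low as 0.068, with adjusted p up to 0.699. The rises from fetal libraries were 0.51 to neonatal (adjusted p = 0.000192) and 0.86 to adult libraries (adjusted p = 7.77e-07) without fetal replicate 3.

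Efemp1, or fibulin-3, is a close relative of Efemp2 found in basement membranes and elastic tissue (rn6 chr14:113202445-113294988, plus strand, 12 exon blocks). It was the scarcest member before birth, at 1.13, 0.881 and 1.97 CPM, which is 21, 20 and 37 reads. Neonatal libraries held 3.96, 3.76 and 3.62 CPM, and adult libraries 61.7, 22.3 and 15.5 CPM. The ages did not overlap, and adult replicate 1 stood well above the other adult libraries. Efemp1 rose 8.74-fold from neonatal to adult libraries (log2 fold change 3.13 ± 0.51 SE, adjusted p = 0.000686) and 25.1-fold from fetal to adult libraries (4.65 ± 0.57 SE, adjusted p = 9.13e-05). Without adult replicate 1 these were 2.32 and 3.84. The neonatal level did not pass against the fetal one (1.52 ± 0.60 SE, adjusted p = 0.0757). It did so without adult replicate 1 (adjusted p = 0.00519) or 3 (0.0361), with only the 2 ages compared (0.0117) and with DESeq2 (0.00892). Without fetal replicate 3 the value was 1.92 (adjusted p = 0.192). The adult rise from fetal libraries was 32.9-fold without fetal replicate 3 (5.04, adjusted p = 0.00239).

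Fbln1, a larger fibulin found along elastic fibres and in basement membranes (rn6 chr7:126096793-126176468, plus strand, 17 exon blocks), showed the widest adult spread in CPM. Its level was 22.2, 20.9 and 49.4 CPM in fetal, 42.8, 48.8 and 44.6 CPM in neonatal and 809, 340 and 220 CPM in adult libraries. All adult libraries lay above all others, while fetal replicate 3 exceeded every neonatal library. Fbln1 rose 10.0-fold from neonatal to adult libraries (log2 fold change 3.33 ± 0.52 SE, adjusted p = 0.000499) and 14.8-fold from fetal to adult libraries (3.89 ± 0.53 SE, adjusted p = 0.000176). Without adult replicate 1 these were 2.62 and 3.19, still past the threshold. Neonatal and fetal libraries did not differ detectably (0.56 ± 0.49 SE, adjusted p = 0.394; without fetal replicate 3, 1.08 and adjusted p = 0.227). The adult rise from fetal libraries was 21.1-fold without that library (4.40, adjusted p = 0.00181). Of the per-kilobase signal of Fbln5 and Fbln1 together, Fbln5 held 94.8% ± 0.255 (SD, n = 3) in neonatal libraries and 38.6% ± 14.2 in adult libraries.

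The MAGP genes code for small glycoproteins bound to fibrillin microfibrils. Mfap2, or MAGP-1 (rn6 chr5:159534202-159539750, plus strand, 9 exon blocks), was at 40.6, 34.9 and 33.5 CPM in fetal libraries, 1.27, 0.929 and 0.971 CPM in neonatal libraries and 0.841, 0.650 and 0.299 CPM in adult libraries. Fetal libraries, replicate 3 included, stood far above the rest, and neonatal and adult libraries held only 4 to 23 reads each, without overlapping. Mfap2 fell 34.2-fold from fetal to neonatal libraries (log2 fold change -5.10 ± 0.22 SE, adjusted p = 2.04e-06) and 60.2-fold from fetal to adult libraries (-5.91 ± 0.24 SE, adjusted p = 6.43e-08). The later step from neonatal to adult libraries was -0.81 ± 0.32 SE (adjusted p = 0.0478) and rests on 11, 9 and 4 adult reads. That call was lost without fetal replicate 1 or 2 (adjusted p = 0.0540 and 0.0636), without neonatal replicate 1, 2 or 3 (0.133, 0.0572 and 0.0654) and without adult replicate 2 or 3 (0.0814 and 0.226). It was also lost with library size alone (0.0559), with only the 2 ages compared (0.0922) and with DESeq2 (0.0585). The falls from fetal libraries, leaving out fetal replicate 3, were -5.15 to neonatal (adjusted p = 1.84e-08) and -5.97 to adult libraries (adjusted p = 1.00e-09).

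Mfap5, or MAGP-2 (rn6 chr4:155313671-155336228, plus strand, 11 exon blocks), went the other way with the smallest standard errors of these genes. It stood at 32.7, 28.8 and 28.7 CPM in fetal libraries, 22.3, 23.0 and 23.4 CPM in neonatal libraries and 323, 332 and 339 CPM in adult libraries. Fetal replicate 3 lay with the other fetal libraries, adult replicate 1 lay with the other adult libraries, and no ages overlapped. Mfap5 fell 1.31-fold from fetal to neonatal libraries (log2 fold change -0.39 ± 0.068 SE, adjusted p = 0.00254), then rose 14.5-fold to adult libraries (3.86 ± 0.073 SE, adjusted p = 2.13e-09). Adult libraries also stood above fetal ones (3.46 ± 0.071 SE, adjusted p = 1.12e-09). Leaving out fetal replicate 3, the fetal comparisons gave -0.42 for neonatal (adjusted p = 0.000508) and 3.43 for adult libraries (adjusted p = 1.32e-11). Per kilobase of exon, Mfap5 made up 49.3% ± 0.821 (SD, n = 3) of the MAGP pair in fetal libraries, 96.2% ± 0.720 in neonatal libraries and 99.8% ± 0.0738 in adult libraries.

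**Figure D3:**
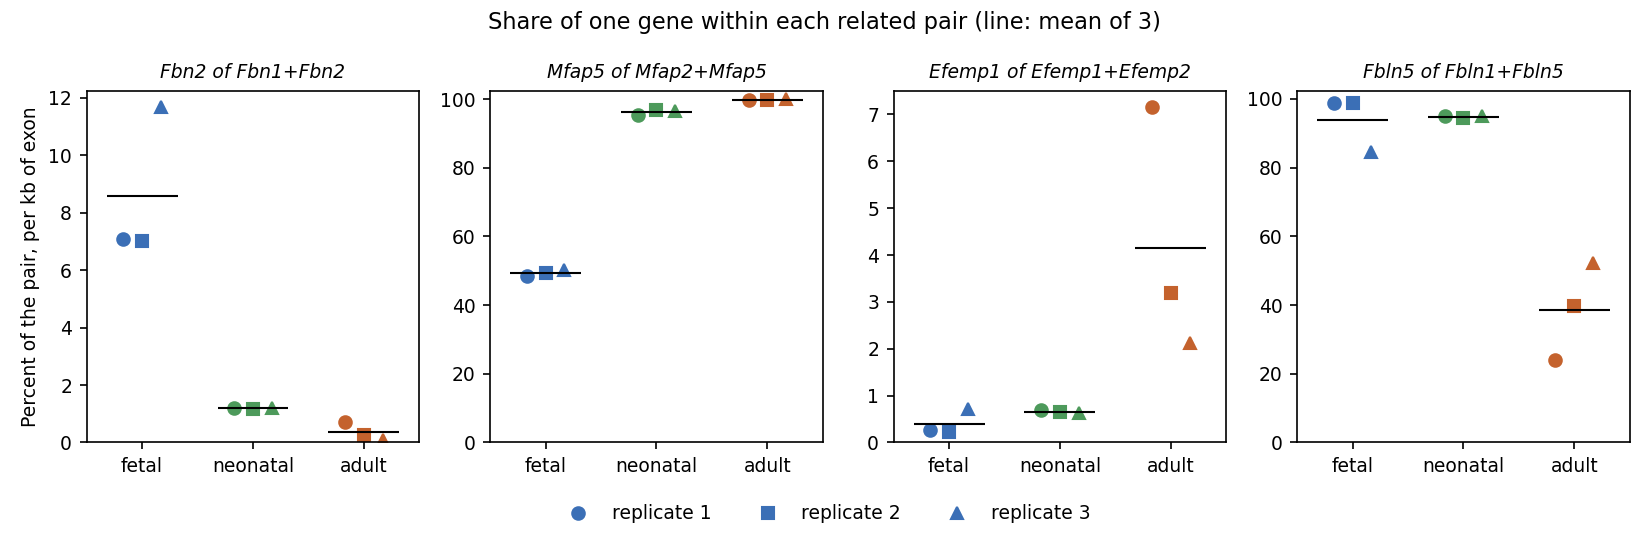
Share of each related pair held by 1 gene (percent of the pair's counts per kilobase of exon, each point a library, the line the mean of 3) at the 3 ages. Mfap5 passes from 49.3% in fetal to 99.8% in adult libraries, while Fbn2 passes from 8.59% to 0.357% of the fibrillins.

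Emilin1, an elastin-binding glycoprotein of the fibre surface that restrains TGF-beta processing (rn6 chr6:26821255-26828972, minus strand, 8 exon blocks), stood at 391, 344 and 275 CPM in fetal and 326, 374 and 372 CPM in neonatal libraries. Adult libraries held 900, 665 and 530 CPM. Fetal and neonatal libraries overlapped, and every adult library was above both. Emilin1 rose 1.95-fold from neonatal to adult libraries (log2 fold change 0.97 ± 0.19 SE, adjusted p = 0.00183) and 2.07-fold from fetal to adult libraries (1.05 ± 0.19 SE, adjusted p = 0.000895; without fetal replicate 3, 0.92 and adjusted p = 0.00848). Neonatal and fetal libraries did not differ detectably (0.087 ± 0.19 SE, adjusted p = 0.747), and the sign of this value turned without fetal replicate 3 (-0.038) and with scaling by library size alone (-0.073).

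Adult replicate 1 carried the highest adult value of Fbn2, Fbln1, Efemp1, Emilin1 and Mfap2, and by smaller margins of Fbln5 and Efemp2. Against the mean of adult replicates 2 and 3 it was 4.12-fold higher for Fbn2, 3.31-fold for Efemp1 and 2.96-fold for Fbln1, where 4.99% of all genes differed at least 2-fold between these libraries and 1.85% spanned that range among the neonatal libraries. In the same library the 10 fibroblast markers were mixed: Pdgfra and Tcf21 were 2.18-fold and 2.04-fold higher, while Lum was 1.87-fold and Col1a1 1.39-fold lower. Their summed level was lowest there, at 26657 CPM against 32162 and 34594 CPM. The summed macrophage markers were also lowest, at 2905 CPM against 3531 and 3883 CPM, as were the smooth muscle and mural markers, at 469 CPM against 866 and 909 CPM. Mfap5, Fbn1, Fbln5 and Efemp2 differed by less than 1.2-fold in that library. The part of cell composition in these differences was not tested.

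Ordered by CPM per kilobase of exon (RPKM), the make-up of the gene set changed with age. In neonatal libraries Eln led at 1006 ± 45.2 RPKM (SD, n = 3), followed by Fbn1 at 369 ± 10.9, Fbln5 at 297 ± 6.24 and Efemp2 at 285 ± 4.27. The ranges of Fbln5 and Efemp2 overlapped, and Emilin1 (93.2), Mfap5 (26.0), Fbln1 (16.3), Fbn2 (4.49), Efemp1 (1.88) and Mfap2 (1.02 RPKM) followed without overlap. In adult libraries Mfap5 at 376 ± 8.995 and Efemp2 at 363 ± 31.2 RPKM led with overlapping ranges. Emilin1 (182), Fbln1 (164) and Fbn1 (138 RPKM) came next, each overlapping its neighbour, then Fbln5 (85.8), Eln (54.5 ± 7.44) and Efemp1 (16.5), with Mfap2 (0.577) and Fbn2 (0.476 RPKM) last and overlapping. The wide Fbln1 range, 79.0 to 290 RPKM, also took in the Fbln5 range of 80.6 to 90.9 RPKM. In fetal libraries the first ranks, Eln (704 ± 557), Fbln5 (413 ± 274), Fbn1 (230 ± 94.5) and Efemp2 (179 ± 37.4 RPKM), could not be ordered beyond their spread, because each range reached the next through fetal replicate 3. In fetal replicates 1 and 2 they stood apart, at 1067 and 983 RPKM for Eln, 581 and 560 for Fbln5, 284 and 286 for Fbn1, and 207 and 193 for Efemp2. Emilin1 (87.7), Mfap2 (35.1), Mfap5 (34.1), Fbn2 (19.8), Fbln1 (11.1) and Efemp1 (0.660 RPKM) followed, with overlap between Mfap2 and Mfap5 and between Fbn2 and Fbln1. The Emilin1 range, 71.8 to 102 RPKM, also overlapped those of Eln and Fbln5. These reached down to 63.1 and 96.8 RPKM in fetal replicate 3.

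Eln accounted for 47.9% ± 0.831 (SD, n = 3) of the 10 genes' per-kilobase signal in neonatal libraries and 4.03% ± 0.980 in adult libraries. In fetal libraries its share ran from 10.7% in replicate 3 to 45.4%. Mfap5 took 27.6% ± 3.98 and Efemp2 26.4% ± 1.74 of the adult signal, against 1.24% ± 0.0123 and 13.6% ± 0.333 of the neonatal signal. The summed level of the 10 genes was 8752, 8331 and 2283 CPM in fetal libraries, 8297, 8729 and 8586 CPM in neonatal libraries and 4239, 3610 and 3334 CPM in adult libraries, so adult libraries lay below all others except fetal replicate 3.

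**Figure D4:**
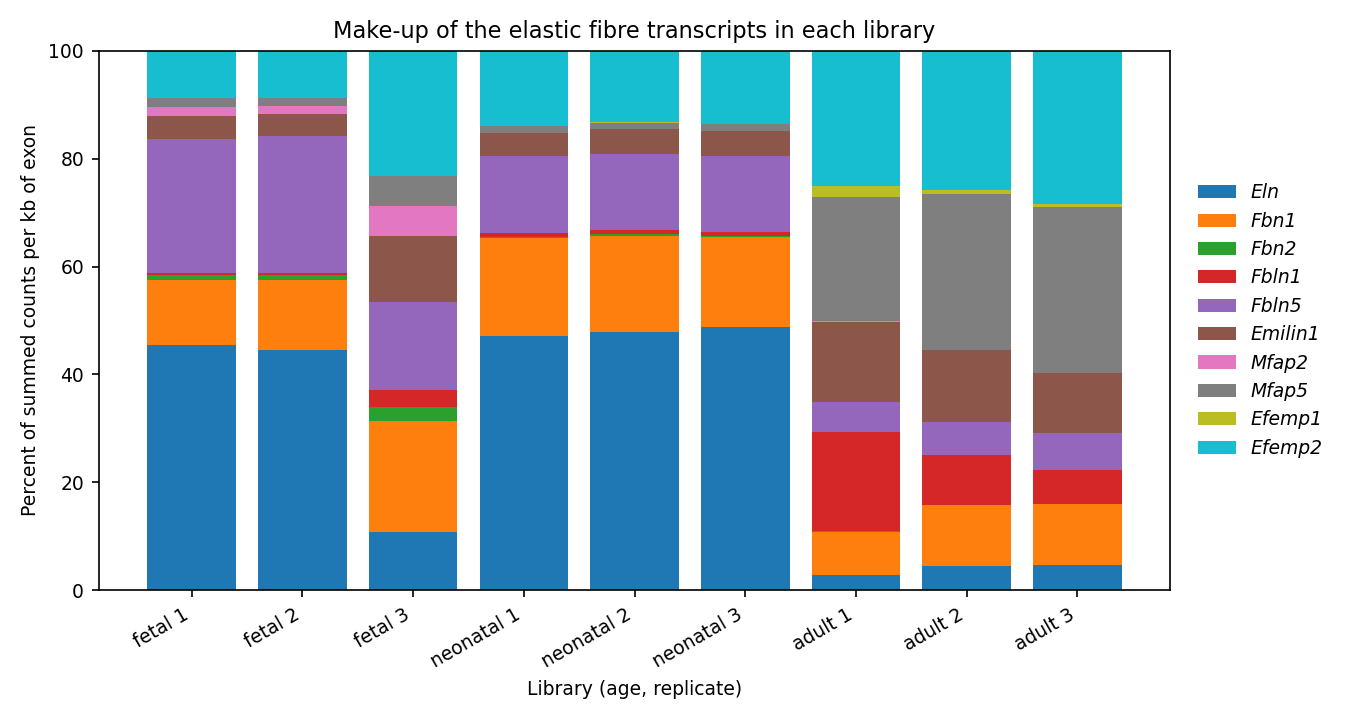
Share of each gene in the summed counts per kilobase of exon of the 10 elastic fibre genes (percent, stacked bars, 1 bar a library). Eln fills 47.1% to 48.7% of the neonatal bars and 2.90% to 4.63% of the adult bars, and fetal replicate 3 differs from the other fetal bars.

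The genes whose course over the 9 libraries was closest to each member were found by the root mean square difference between centred log2 CPM profiles, over 8313 candidates with a mean of at least 10 CPM. The nearest to Eln were Hey2 at 0.64 and Gucy1a3 at 0.73, where the Eln profile itself had an SD of 2.20. Hey2, a Notch-responsive transcription factor, stood at 24.9, 23.5 and 6.85 CPM in fetal, 28.6 ± 1.77 CPM (SD, n = 3) in neonatal and 1.78 ± 0.422 CPM in adult libraries, and so was also low in fetal replicate 3. Fbn1 had Antxr1 at 0.10 and Fat1 at 0.11, Fbn2 had Sema5a at 0.51 and Fhod3 at 0.58, and Fbln5 had Osr1 at 0.25 and Rgs4 at 0.33. Mfap2, with a profile SD of 2.72, had Scara3 at 0.76 and Dhrs9 at 0.77, the widest distances. Mfap5 had Hlx at 0.16 and Nlrp1a at 0.21. Emilin1 was nearest to Pink1 and Cish, and Efemp2 to Pttg1ip and March2, with distances of 0.11, 0.12, 0.056 and 0.069. Fbln1 was nearest to RT1-S3 and Bcl3 (0.34 and 0.36), and Efemp1 to Gda and Gbp2 (both 0.34). Among the members themselves the closest pairs were Emilin1 with Efemp2 at 0.32 and Fbln1 with Efemp1 at 0.37.

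Beyond these genes, 50 others of the elastic fibre system were listed, of which 39 are in the table and 37 were tested. Between neonatal and fetal libraries 16 were higher and 5 lower, where 36.3% of all genes were called. Between adult and neonatal libraries 11 were higher and 16 lower (63.5% of all genes called), and between adult and fetal libraries 16 were higher and 12 lower (70.5%). These counts were 20 and 7, 14 and 20, and 17 and 17 without fetal replicate 3, where 40.6%, 72.2% and 74.8% of all genes were called. With all libraries the median log2 fold changes of the 37 genes were 0.61, -0.40 and -0.12, where the median over all genes tested was close to 0. Fbln2 is not analysed here, and Mfap4 had no count in any library.

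The 5 lysyl oxidases, which cross-link elastin and collagen, gave 4 lower and 1 higher in adult than in neonatal libraries, where 31.8% of all genes were lower and 31.6% higher. Between neonatal and fetal libraries 2 were lower and 1 higher, where 18.0% and 18.3% of all genes were. Between adult and fetal libraries 3 were lower and 1 higher, where 35.5% and 34.9% of all genes were. Lox, the founding member, stood at 367, 372 and 344 CPM in fetal, 200, 205 and 187 CPM in neonatal and 102, 88.0 and 72.5 CPM in adult libraries. The ages did not overlap, and Lox fell at both steps (log2 fold changes -0.87 ± 0.11 SE, adjusted p = 0.000521, and -1.18 ± 0.11 SE, adjusted p = 1.93e-05). Loxl4 also fell at both steps (-0.86, adjusted p = 0.00368, and -1.46, adjusted p = 8.95e-05). The first step was -0.90 for Lox (adjusted p = 0.000287) and -0.65 for Loxl4 (adjusted p = 0.000610) without fetal replicate 3. Loxl1, the relative tied most closely to elastic fibres, went the other way, from 345, 271 and 186 CPM in fetal through 378, 433 and 429 CPM in neonatal to 724, 666 and 588 CPM in adult libraries. The adult libraries lay above all others, and Loxl1 rose from neonatal to adult libraries (0.67 ± 0.19 SE, adjusted p = 0.0127). Its earlier rise from fetal libraries (0.63 ± 0.19 SE, adjusted p = 0.0318) was lost without fetal replicate 2 (adjusted p = 0.0668), without neonatal replicate 1, 2 or 3 (0.0543, 0.0900 and 0.0846) or with only the 2 ages compared (0.0552). It was 0.42 without fetal replicate 3 (adjusted p = 0.0218).

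Latent TGF-beta binding proteins are fibrillin relatives, and 3 of the 7 genes in their list passed between adult and neonatal libraries, where 63.5% of all genes did. Tgfb1 was higher, and Tgfb2 and Tgfb3, named after their values were seen, were lower. The list had 2 higher and 3 lower without fetal replicate 3, where 36.1% and 36.2% of all genes were. Ltbp4, which assists Fbln5 in elastic fibre assembly, stood at 386, 344 and 105 CPM in fetal, 319, 355 and 361 CPM in neonatal and 217, 215 and 198 CPM in adult libraries. Adult libraries were below every neonatal one, and fetal replicate 3 was the lowest library of all. Ltbp4 passed in no comparison with all libraries (adult against neonatal -0.72 ± 0.38 SE, adjusted p = 0.1305). Without fetal replicate 3 it was lower in adult than in neonatal (-0.72, adjusted p = 2.06e-06) and fetal libraries (-0.80, adjusted p = 1.59e-06). Ltbp1 fell from fetal to neonatal libraries (-1.27 ± 0.21 SE, adjusted p = 0.00201; without fetal replicate 3, -1.40 and adjusted p = 0.00416), and between adult and neonatal libraries it passed only without adult replicate 1 (-0.49, adjusted p = 0.0175). Tgfb1, the ligand they hold, was at 92.1 ± 1.57 CPM (SD, n = 3) in neonatal and 297 ± 6.39 CPM in adult libraries (1.69 ± 0.070 SE, adjusted p = 1.24e-07), an age difference in which macrophage markers also rose.

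Of the 5 tested genes for other glycoproteins and proteoglycans, 3 were lower and 1 higher in adult than in neonatal libraries, where 63.5% of all genes were called. Vcan, a large proteoglycan that binds fibrillin, fell from 1221 ± 25.5 CPM (SD, n = 3) to 302 ± 37.5 CPM (-2.02 ± 0.13 SE, adjusted p = 1.90e-06). Over the 16 alternatives this Vcan value ran from -2.07 to -0.94 and passed in each, so its size depends on the processing. Dcn, a small collagen-binding proteoglycan, rose from 58.1 ± 0.763 to 353 ± 120 CPM (2.60 ± 0.44 SE, adjusted p = 0.000813). Like Fbln1 it was highest in adult replicate 1, with 470, 359 and 230 CPM over the adult libraries. Among 5 tested genes of fibrillin processing, 3 were higher in adult than in neonatal libraries and none was lower, a share near the 63.5% of all genes called. Without fetal replicate 3 these counts were 3 and 2, where 36.1% and 36.2% of all genes were higher and lower. Adamtsl5 rose from 11.8 ± 1.55 to 30.8 ± 4.02 CPM (1.38 ± 0.21 SE, adjusted p = 0.000396), while Adamtsl3 rose before it, from 49.6 ± 14.2 CPM in fetal to 201 ± 1.89 CPM in neonatal libraries (2.01 ± 0.19 SE, adjusted p = 0.000115; without fetal replicate 3, 1.80 and adjusted p = 6.63e-08).

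Of 8 tested proteases that degrade elastin or microfibrils, 5 were higher and 1 lower in adult than in neonatal libraries, where 31.6% and 31.8% of all genes were. Ctss, an elastinolytic cathepsin abundant in macrophages, rose from 7.79 ± 1.05 CPM (SD, n = 3) to 235 ± 11.5 CPM (log2 fold change 4.92 ± 0.32 SE, adjusted p = 2.78e-06). Mmp12, macrophage metalloelastase, was named after its values were seen, and stood at 0.162, 0.0881 and 11.7 CPM in fetal, 72.2, 66.8 and 66.5 CPM in neonatal and 1918, 1580 and 1538 CPM in adult libraries. It rose at both steps (4.14 ± 1.011 SE, adjusted p = 0.0139, and 4.62 ± 0.96 SE, adjusted p = 0.00264). The first step without fetal replicate 3, the highest fetal library, rested on 3 and 2 fetal reads and was fitted at 9.06 (adjusted p = 1.85e-09). With so few fetal reads the size of this step is imprecise. All 12 macrophage markers rose in the same adult comparison, and the source of the protease RNA was not tested. Ctsk, which fibroblasts also express, rose earlier, from 21.1 ± 5.62 CPM in fetal to 85.0 ± 3.77 CPM in neonatal libraries (2.01 ± 0.16 SE, adjusted p = 5.38e-05; without fetal replicate 3, 1.83 and adjusted p = 1.43e-07). It did not pass between adult and neonatal libraries (0.30 ± 0.16 SE, adjusted p = 0.120; without fetal replicate 3, adjusted p = 0.00469).

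Of 7 tested integrin genes whose products bind fibrillin, Fbln5 or latent TGF-beta, 6 were lower in adult than in neonatal libraries and none was higher, where 31.8% and 31.6% of all genes were. Itgb3 stood at 32.1, 36.4 and 43.8 CPM in fetal, 126, 128 and 120 CPM in neonatal and 25.2, 22.7 and 19.8 CPM in adult libraries. The neonatal libraries were thus highest and overlapped neither other age, with Itgb3 rising from fetal libraries (log2 fold change 1.74 ± 0.12 SE, adjusted p = 2.25e-05) and falling to adult ones (-2.47 ± 0.13 SE, adjusted p = 4.15e-07). The rise was 1.87 without fetal replicate 3 (adjusted p = 1.21e-07). Itgb6, an epithelial integrin subunit, fell at both steps from 8.53, 9.74 and 18.0 CPM in fetal libraries (-2.32, adjusted p = 0.000663, and -2.77, adjusted p = 0.000440), and its highest value was in fetal replicate 3, where epithelial markers were also highest. Without that library its first step was -1.91 (adjusted p = 2.29e-05).

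**Figure D5:**
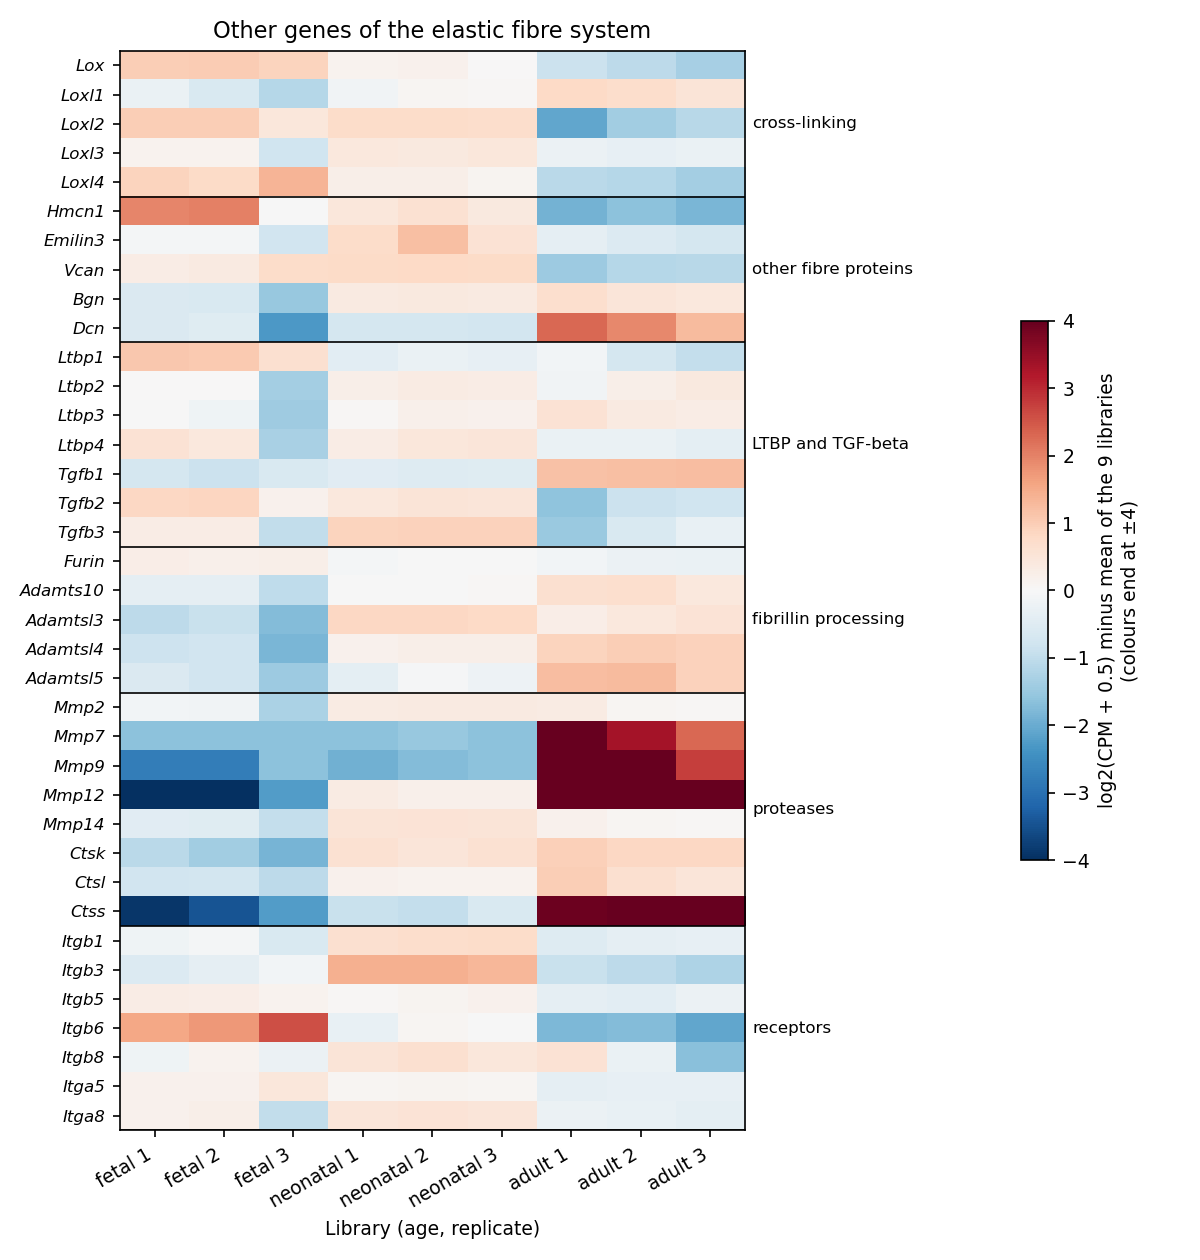
Log2 CPM of the tested other genes of the elastic fibre system in the 9 libraries, each row centred on its mean over the libraries (colour scale, log2 units). Lox falls from fetal to adult libraries and Loxl1 rises, and fetal replicate 3 differs from its group in Ltbp4.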

How the data were processed

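Gene-level read counts came from the authors' deposited featureCounts table (featureCounts 1.6.3 with an rn6 annotation, per the file headers). Trimmomatic 0.39 and STAR 2.5.2b are named in the submitters' processing notes, and no strand option was set in the recorded command, so sense and antisense reads were counted together. No elastic fibre gene shares exon bases with another gene of the table. The authors' second deposited table, a normalized signal, equals the counts divided by 1 size factor per library and was used only for that check.

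Genes with low counts were removed by filterByExpr, libraries were scaled by TMM, and 1 quasi-likelihood model over all 9 libraries with age as the only term was fitted in edgeR 4.0.16 (R 4.3.3) and tested on simulated data. RPKM uses the deposited exon length. Precision is limited by 3 libraries an age and by totals of 13392825 to 22850491 counts. Alternatives were other scalings, no filter, DESeq2 1.42.0, a replicate block, removal of the length trend, only the ages compared and each library left out.

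The members and the lists of other genes were chosen with earlier results of these data known. Every member is named. Of each list of other genes the 2 with the smallest p for any difference among the ages are named, plus Lox, Loxl1, Ltbp4, Fbln2 and Mfap4, and for each member the 2 genes with the nearest profile. Marker genes are named where a list moved with age or library. Replicate numbers follow the labels, and 13 listed genes were not analysed here.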

Additional observations from a re-analysis of the deposited data

How the results depend on the processing

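Over 16 alternatives, 441 of the members' values kept their direction and side of the threshold, 14 gained a call, 21 lost one and 4 turned sign. Without fetal replicate 3, neonatal against fetal values turned sign for Eln, Emilin1, Dcn and Ltbp4, none of which passed with all libraries; leaving out 1 library each, they ran from -0.025 to 0.94, -0.038 to 0.20, -0.17 to 0.50 and -0.080 to 0.62. With library size alone Emilin1 turned to -0.073 and the neonatal sum of members was 8099 CPM, the median over all genes shifted to -0.18 (neonatal against fetal) and -0.12 (adult against fetal), and 29.0% of calls were higher in neonatal than fetal libraries, against 50.4%. With the length trend removed, Ltbp1 (0.38), Adamtsl3 (0.32) and Ctsk (-0.019) turned in adult against neonatal libraries and Fbn1 (0.22) and Ltbp4 (0.072) in adult against fetal libraries; the cause was not tested. A further limit of 1 on the size of the log2 fold change left 1272, 2838 and 3675 of all genes in neonatal against fetal, adult against neonatal and adult against fetal libraries, and 2 members and 11 other genes of the system in the first. Leaving out 1 library, neonatal against fetal calls ran from 2476 to 4679 genes, and were 2607, 2476 and 2575 without neonatal replicates 1, 2 and 3.

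The replicate block called 4, 9 and 9 members in neonatal against fetal, adult against neonatal and adult against fetal libraries, beside 3713, 6985 and 7801 of all genes. The call of Fbn1 in the last comparison was lost (adjusted p = 0.0532), and no other member's call changed. No sign of pairing by replicate number was seen: deviations of same-numbered libraries from their age means correlated at -0.065 to 0.052. This cannot exclude a pairing, because the outlying fetal replicate 3 weighs on the fetal deviations. Mfap2 and Efemp1 rest on 4 to 37 reads where lowest, and Fbn2 on 105, 45 and 14 reads in adult libraries, which limits their precision.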
